A study of Mus musculus with 64 samples.

Results

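The Egr genes encode the early growth response factors, a family of zinc finger transcription factors. All 4 members, Egr1, Egr2, Egr3 and Egr4, were taken by gene symbol from the transcript tables, as 4 of 46785 genes and 11 of 112714 transcripts. RNA of the nucleus accumbens (NAc) and of the prefrontal cortex (PFCx) was sequenced on the Ion Proton platform from male C57BL/6N mice aged 8 to 10 weeks, 2 h after an intraperitoneal injection, in 64 libraries. The drugs were the antipsychotics haloperidol (1 mg/kg) and risperidone (0.5 mg/kg), the psychostimulant methamphetamine (2 mg/kg), the antidepressants mianserin (20 mg/kg) and venlafaxine (16 mg/kg), and the NMDA receptor antagonist ketamine (20 mg/kg), each with 4 libraries per tissue. Controls received saline and came as saline I and saline II, with 4 libraries of each per tissue. Haloperidol and risperidone were dissolved in saline with a drop of hydrochloric acid, and the sources used here do not say whether the saline controls received the acid too. Nor do they tie NAc and PFCx libraries to shared animals or state that each library was a separate animal, so the p-values measure the spread between these libraries, which may in part be technical.

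Egr genes are immediate early genes: synaptic activity and growth factors switch them on within minutes, without new protein synthesis, through the ERK kinase pathway acting on serum response factor and its partners and through CREB. Their proteins bind GC-rich sites and pass a brief signal on to other genes, among them the cytoskeletal gene Arc. Egr1 (also Zif268) is widely used as a marker of neuronal activity and is linked to long-lasting synaptic plasticity, Egr2 (Krox20) is best known for hindbrain patterning and for myelination by Schwann cells, Egr3 acts in muscle spindle formation and in memory, and Egr4 is enriched in the nervous system.

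Upstream sequences are shown for Egr2 and Egr4, since the RefSeq promoter windows (GRCm38.p6) held only these 2 of the 4 members. Egr1 and Egr3 could not be searched, so the motifs cannot be compared with the size of the differences. The 250 bases before the transcription start are printed 5′ to 3′ on the strand of the gene. Capitals mark a CArG box, the binding element of serum response factor, or the CRE core TGACG, which CREB binds and which reads CGTCA on the other strand. The Egr2 window is chr10:67537619-67537868 on the plus strand and ends just before transcript Egr2-201. The Egr4 window is chr6:85513590-85513839 and is read on the minus strand.
Egr2: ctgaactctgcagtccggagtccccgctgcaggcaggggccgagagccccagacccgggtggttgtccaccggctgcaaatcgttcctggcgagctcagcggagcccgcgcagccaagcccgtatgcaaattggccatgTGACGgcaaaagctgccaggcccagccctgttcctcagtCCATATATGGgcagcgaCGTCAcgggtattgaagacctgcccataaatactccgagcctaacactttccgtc
Egr4: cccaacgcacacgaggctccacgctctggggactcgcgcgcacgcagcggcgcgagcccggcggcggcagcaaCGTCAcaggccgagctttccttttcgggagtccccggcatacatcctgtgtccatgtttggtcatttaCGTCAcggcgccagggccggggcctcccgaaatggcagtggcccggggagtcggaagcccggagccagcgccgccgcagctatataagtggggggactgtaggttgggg

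The printed Egr2 window held 1 CArG box, 72 to 63 bases before the start, and 2 CRE cores. It is 1 of 5 Egr2 windows in the table, chosen because it precedes Egr2-201. Of the other 4, which in part overlap with it, 2 held the same motifs, 1 held a CArG box and no CRE core, and 1 held neither. The Egr4 window held 2 CRE cores, starting 177 and 109 bases before the start, and no CArG box of the searched form. Among the 32851 upstream windows of all genes, 1.47% held a CArG box and 17.8% a CRE core. Neither printed window held the full CRE (TGACGTCA, in 1.55% of windows) or the Egr site GCGNGGGCG (CGCCCNCGC on the other strand, in 4.7% of windows). A match is a description of the letters and not of binding.

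Values are FPKM (fragments scaled to transcript length and to library size), summed over the transcripts of a gene, so that levels can be compared between genes. The depth of the libraries, estimated as coverage divided by FPKM, was 1.52 to 3.26 gigabases (median 2.39). Haloperidol, risperidone and methamphetamine libraries of NAc resembled saline I, and mianserin, venlafaxine and ketamine libraries resembled saline II, in how many transcripts were listed above 0: 85287 to 87827 in NAc set I and 107099 to 110556 in NAc set II. Saline I and saline II differed in 24.7% of 37034 tested genes in NAc and in 9.2% in PFCx (limma, adjusted p under 0.05), and 0 of 4 Egr genes passed in either tissue, with 2 of 4 in each tissue at an unadjusted p under 0.05. In PFCx this number did not separate the sets (108878 to 110852 and 108556 to 110620), and the sets of NAc were carried over to PFCx, so that every PFCx comparison with the saline of the same set rests on NAc. Each drug was compared with all 8 saline libraries and also with the 4 of its own set. Tissue markers separated the dissections, since 9 markers of medium spiny neurons summed to 473 to 773 FPKM in NAc and 26.3 to 82.9 in PFCx, and 7 markers of cortical projection neurons to 46.0 to 115 in NAc and 212 to 315 in PFCx.

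After saline, Egr1 and Egr3 were the abundant members in both tissues, Egr4 was lower and Egr2 was the lowest. In NAc the 8 saline libraries gave Egr1 from 8.15 to 10.2 FPKM (median 9.16) and Egr3 from 8.46 to 11.97 FPKM (median 9.67). Egr4 lay between 1.64 and 2.89 FPKM (median 2.203). Egr2 lay between 0.370 and 1.07 FPKM (median 0.852), below every Egr4 value. The share of the summed Egr level was 41.8% ± 3.08 (SD, n = 8) for Egr1 and 44.2% ± 3.27 for Egr3, against 10.3% ± 1.74 for Egr4 and 3.63% ± 0.986 for Egr2.

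Egr1, Egr2 and Egr4 were lower in NAc than in PFCx after saline, and Egr3 did not pass the test. Mean Egr1 was 9.14 FPKM ± 0.696 (SD, n = 8) in NAc and 12.5 ± 1.65 in PFCx, a log2 difference of -0.41 (SE 0.07, limma adjusted p = 8.96e-06). No Egr1 value of NAc reached the lowest of PFCx, 10.5 FPKM. Egr2 was at 0.800 FPKM ± 0.239 and 1.86 ± 0.608, a difference of -0.65 (SE 0.11, adjusted p = 5.23e-06), and Egr4 at 2.25 ± 0.384 and 3.89 ± 1.07, a difference of -0.57 (SE 0.10, adjusted p = 8.35e-06). The ranges of both genes overlapped between the tissues. Egr3 was at 9.71 FPKM ± 1.19 and 10.8 ± 1.52, a difference of -0.14 (SE 0.09, adjusted p = 0.231). A difference between tissues was common, since 45.7% of the tested genes passed, 13749 of them lower in NAc and 3183 higher. The median difference over all genes was -0.105, so a lower level in NAc was the usual direction. This contrast pooled saline I and saline II. Within NAc, 7128 genes were lower in saline I than in saline II and 2033 higher, with a median difference of -0.0811. The part of the sample set in the contrast of tissues was not tested. In bulk tissue fewer cells of a type and less RNA per cell cannot be told apart.

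**Figure D1:**
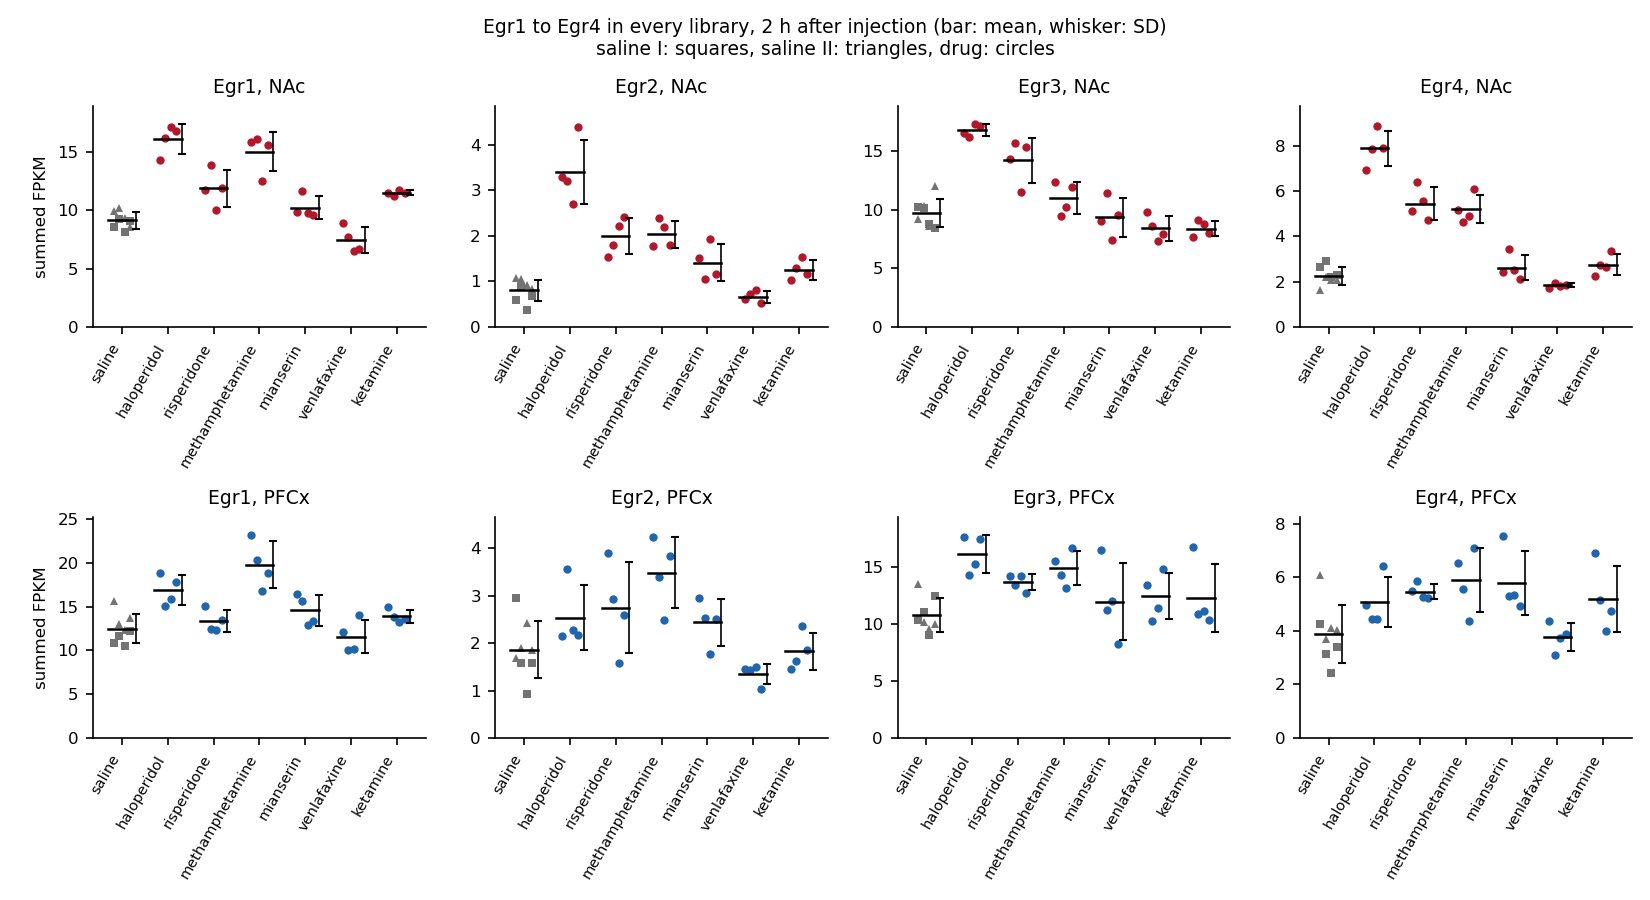
Summed FPKM of each Egr gene (vertical axis, from 0) in every library of NAc (upper row) and PFCx (lower row) by treatment, with saline I as squares, saline II as triangles, drugs as circles, the mean as a bar and the SD as a whisker. In NAc all 4 haloperidol libraries lie above all 8 saline libraries for each of the 4 genes, and in PFCx the same holds for Egr3 only.

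In NAc, all 4 Egr genes rose after haloperidol and after risperidone against all saline, and Egr1, Egr2 and Egr4 rose after methamphetamine. Egr4 and Egr2 showed the largest log2 differences, up to 1.45 and 1.29 after haloperidol. After mianserin Egr2 and after ketamine Egr1 rose against all saline and not against the saline of the same set, and no member passed after venlafaxine. In PFCx 1 comparison passed, Egr1 after methamphetamine.

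Egr1, the activity marker, was at 14.3, 16.2, 16.8 and 17.2 FPKM in the NAc haloperidol libraries. It was at 12.6, 15.6, 15.9 and 16.2 FPKM after methamphetamine, and at 10.01, 11.8, 11.9 and 13.9 FPKM after risperidone. All haloperidol and methamphetamine values and 3 of 4 risperidone values exceeded the highest saline value of 10.2 FPKM. The mean was 1.76 times the saline mean after haloperidol (log2 difference 0.76, SE 0.08, adjusted p = 1.02e-06) and 1.65 times after methamphetamine (0.66, SE 0.08, adjusted p = 2.55e-05). After risperidone it was 1.30 times the saline mean (0.34, SE 0.08, adjusted p = 0.0352), and against saline I the call was lost (0.39, adjusted p = 0.0636). Leaving out NAc risperidone replicate 1, 2 or 4, or saline II replicate 3 or 4, also ended this call, with the adjusted p reaching 0.179 without risperidone replicate 2.

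Ketamine gave the tightest Egr1 values of NAc, 11.3, 11.5, 11.5 and 11.8 FPKM. All lay above every saline value, with a mean of 1.26 times that of saline (log2 difference 0.31, SE 0.08, adjusted p = 0.0411). The call was lost against saline II (0.26, adjusted p = 0.253), although the 4 values stayed above all 4 saline II values, and without any single ketamine or saline I library (adjusted p up to 0.113). Venlafaxine gave 6.49, 6.73, 7.72 and 8.95 FPKM, with 3 of 4 values below the lowest saline value of 8.15 FPKM. This difference of -0.27 (SE 0.08) did not pass (adjusted p = 0.0663), but passed without saline II replicate 4 (-0.28, adjusted p = 0.0496) and without venlafaxine replicate 1 (-0.35, adjusted p = 0.0467). These were 2 of 32 fits that left out 1 library, and in the others the adjusted p reached 0.294. Mianserin gave 9.62, 9.77, 9.91 and 11.7 FPKM, overlapping saline (0.15, 95% interval -0.01 to 0.31).

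Egr2 rose from the lowest level of the family. Its NAc haloperidol values were 2.71, 3.20, 3.30 and 4.38 FPKM, all above the highest saline value of 1.07 FPKM. The mean was 4.24 times that of saline (log2 difference 1.29 on the log2(FPKM + 1) scale, which understates changes of low genes, SE 0.11, adjusted p = 1.86e-08). Methamphetamine gave 1.78, 1.79, 2.19 and 2.38 FPKM and risperidone 1.54, 1.80, 2.21 and 2.42 FPKM, and neither overlapped with saline. Their log2 differences were 0.76 (SE 0.11, adjusted p = 0.000532) and 0.73 (SE 0.11, adjusted p = 0.000456).

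Mianserin gave Egr2 values of 1.05, 1.16, 1.504 and 1.94 FPKM in NAc, 3 of which exceeded all saline values. The difference of 0.42 (SE 0.11) passed narrowly against all saline (adjusted p = 0.0471), but not against saline II (0.28, adjusted p = 0.537). The call was also lost in 19 of 32 fits that left out 1 library, with log2 differences of 0.32 to 0.49 and an adjusted p of up to 0.169 without mianserin replicate 3. Ketamine gave 1.02, 1.15, 1.28 and 1.54 FPKM (0.33, SE 0.11, adjusted p = 0.101). Venlafaxine gave 0.516, 0.611, 0.713 and 0.817 FPKM, within the range of all saline but below the 4 saline II values (against all saline -0.10, 95% interval -0.33 to 0.12).

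Egr3 passed after both antipsychotics and did not pass after the other 4 drugs, while in the tests of drug against drug no Egr3 difference passed. The NAc haloperidol values were 16.2, 16.5, 17.1 and 17.3 FPKM, above the highest saline value of 11.97 FPKM and with a mean 1.73 times that of saline (log2 difference 0.74, SE 0.10, adjusted p = 3.91e-05). Risperidone gave 11.5, 14.3, 15.3 and 15.7 FPKM, 3 of them above all saline values (0.50, SE 0.10, adjusted p = 0.00693). Without risperidone replicate 2 this difference was 0.45 and its adjusted p 0.0534. Methamphetamine gave 9.41, 10.3, 11.9 and 12.4 FPKM, overlapping saline (0.16, 95% interval -0.03 to 0.36, adjusted p = 0.423). Egr3 was the only member whose mean after mianserin and ketamine was below that of saline, with differences of -0.06 and -0.19 that did not pass (adjusted p = 0.771 and 0.266), and after venlafaxine the difference was -0.19 (adjusted p = 0.253).

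Egr4 had the smallest adjusted p of the 4 members after haloperidol, risperidone and methamphetamine in NAc. Its haloperidol values of 6.93, 7.84, 7.88 and 8.85 FPKM all lay above the highest saline value of 2.89 FPKM, with a mean 3.49 times that of saline (log2 difference 1.45, SE 0.10, adjusted p = 5.33e-11). Risperidone gave 4.71, 5.09, 5.54 and 6.39 FPKM (0.99, SE 0.10, adjusted p = 9.81e-07), and methamphetamine 4.64, 4.91, 5.15 and 6.10 FPKM (0.93, SE 0.10, adjusted p = 1.27e-06). Neither group overlapped with saline or with haloperidol, and they overlapped with each other. Mianserin gave 2.13, 2.41, 2.49 and 3.42 FPKM, ketamine 2.23, 2.64, 2.73 and 3.37 FPKM, and venlafaxine 1.73, 1.81, 1.85 and 1.94 FPKM. All 3 overlapped with the full range of saline, with differences of 0.15, 0.20 and -0.19 (adjusted p = 0.380, 0.222 and 0.239). Against saline II alone, all 4 ketamine values lay above the highest saline value of 2.204 FPKM, with a difference of 0.32 that did not pass (adjusted p = 0.175).

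In all, 13 of 24 Egr comparisons passed in NAc against all saline, all 13 upward, and 16 had an unadjusted p under 0.05. How many of all genes had an unadjusted p under 0.05 was not counted, here or for the other comparisons. The share of all tested genes that passed was 0.721% for haloperidol (4 of 4 Egr genes), 0.729% for risperidone (4 of 4), 0.194% for methamphetamine (3 of 4), 1.84% for mianserin (1 of 4), 1.83% for venlafaxine (0 of 4) and 1.97% for ketamine (1 of 4). Against the saline of the same set 10 of 24 passed: 4 for haloperidol at a background of 0.235%, 3 for risperidone at 0.213%, 3 for methamphetamine at 0.0891%, and 0 for mianserin at 0.273%, venlafaxine at 0.0081% and ketamine at 0.967%. At an unadjusted p under 0.05 those last 3 drugs had 2, 1 and 2 of 4. A test for any drug effect at an adjusted p under 0.0001 called 4 of 4 members (0.815% of all genes), and 3 of 4 with the saline of the same set (0.327%), where Egr3 had an adjusted p of 0.00103.

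Exact permutation tests of single genes (two-sided, 48 tests for each choice of control) reached 0.00202, the smallest p that 4 against 8 libraries allow, for 10 of the 24 NAc comparisons against all saline. These were all 4 members after haloperidol, Egr2 and Egr4 after risperidone, Egr1, Egr2 and Egr4 after methamphetamine, and Egr1 after ketamine, each with a Benjamini-Hochberg adjusted p of 0.00808 and 4 of 4 libraries above all saline. With 4 against 4 libraries the smallest p the test allows is 0.0286, which adjusted to 0.0571 over these 48 tests, so that none passed. The share of all genes whose drug libraries all lay beyond saline was not counted for any comparison. Such separation therefore describes the Egr genes and does not set them apart from other genes.

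Some marker sums of other cells were higher in the haloperidol libraries of NAc, and that of brain endothelium was lower. The 7 cortical projection neuron markers summed to 94.7 to 115 FPKM after haloperidol (median 102.5) and to 48.2 to 101 FPKM after saline (median 72.5), and 0 of 7 passed. The 5 oligodendrocyte markers summed to 646 to 712 FPKM after haloperidol and 512 to 703 after saline, with 0 of 5 passing, and the 9 medium spiny neuron markers to 632 to 743 and 567 to 766 FPKM, with 0 of 9 passing. The ranges of these 3 lists overlapped with saline, and 0.721% of all tested genes passed in this comparison. No marker of these 3 lists was at 0 in all libraries of a group. The 4 brain endothelium markers summed to 15.5 to 16.1 FPKM after haloperidol and to 17.1 to 20.1 FPKM after saline, without overlap. This was not particular to haloperidol, since risperidone gave 13.1 to 15.7 FPKM, also without overlap. The ranges of the other drugs overlapped with saline. Marker sums were not taken for saline I and saline II apart. The part of these marker sums in the Egr differences was not tested.

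**Figure D2:**
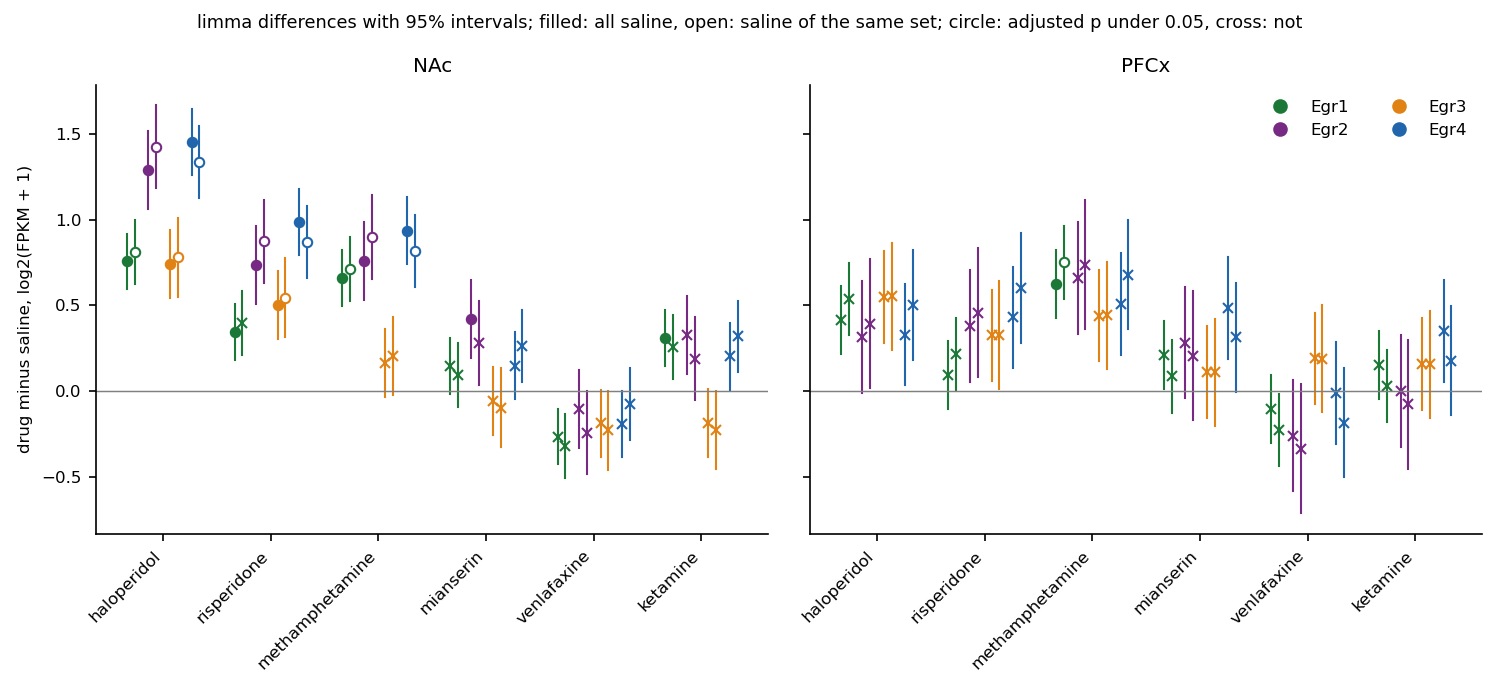
limma differences between drug and saline on the log2(FPKM + 1) scale with 95% intervals, for NAc (left) and PFCx (right), with filled symbols against all saline, open symbols against the saline of the same set, circles for an adjusted p under 0.05 and crosses for others. The NAc haloperidol points lie from 0.74 to 1.45, and the only circles of PFCx are those of Egr1 after methamphetamine.

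In PFCx, Egr1 passed after methamphetamine, and most Egr means after haloperidol, risperidone and methamphetamine were above saline without passing. Egr1 was at 16.8, 18.9, 20.4 and 23.2 FPKM after methamphetamine, all above the highest of 8 saline values (10.5 to 15.7, median 12.3 FPKM). The mean was 1.59 times that of saline (log2 difference 0.63, SE 0.10, adjusted p = 0.000848), and the call held against saline I (0.75, SE 0.10, adjusted p = 0.000298). After haloperidol Egr1 was at 15.1, 15.9, 17.8 and 18.8 FPKM (0.41, adjusted p = 0.0809), with 3 of 4 values above all saline. This difference passed without saline I replicate 2 (adjusted p = 0.0468) or saline II replicate 1 (adjusted p = 0.0413). These were 2 of 32 fits that left out 1 library, and in the others the adjusted p reached 0.25. After risperidone Egr1 lay within the range of all saline (0.09, 95% interval -0.11 to 0.29). Against saline I alone all 4 risperidone libraries lay above all 4 saline libraries for Egr1, Egr3 and Egr4, with differences of 0.22, 0.33 and 0.60 that did not pass in limma (adjusted p = 0.789, 0.784 and 0.166).

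Egr3 after haloperidol was at 14.3, 15.3, 17.5 and 17.7 FPKM in PFCx, above the highest saline value of 13.5 FPKM and 1.501 times the saline mean. The difference of 0.55 (SE 0.13) did not pass across all genes (adjusted p = 0.0853), while the exact permutation p was 0.00202, adjusted to 0.00808. It passed in limma without saline I replicate 2, ketamine replicate 1 or mianserin replicate 1 or 4, with an adjusted p as low as 0.0403. These were 4 of 32 fits that left out 1 library, and in the others the adjusted p reached 0.243. Egr2 after methamphetamine was at 2.48, 3.39, 3.83 and 4.24 FPKM against 0.921 to 2.95 FPKM after saline (median 1.78), with 3 of 4 values above all saline (0.66, SE 0.16, adjusted p = 0.0678). It passed without saline I replicate 1 (0.73, adjusted p = 0.0211) or risperidone replicate 3 (adjusted p = 0.0409). These were 2 of 32 fits that left out 1 library, and in the others the adjusted p reached 0.306. Egr4 after methamphetamine was at 4.35, 5.57, 6.53 and 7.10 FPKM against 2.42 to 6.09 FPKM after saline, and overlapped with it (0.51, SE 0.14, adjusted p = 0.179).

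The second set of drugs gave no call in PFCx. Egr4 after mianserin was at 4.93, 5.31, 5.32 and 7.54 FPKM (0.49, SE 0.14, adjusted p = 0.157). Both this difference and that of Egr4 after methamphetamine passed without saline II replicate 1, the library with the highest Egr4 value of saline, with differences of 0.57 and 0.59 and adjusted p-values of 0.0406 and 0.0471. Each passed in only 1 of 32 fits that left out 1 library, and in the others the adjusted p reached 0.51 and 0.463. Egr2 after venlafaxine was at 1.04, 1.43, 1.45 and 1.496 FPKM, all below the 4 saline II values of 1.69 to 2.43 FPKM, as in NAc, with a difference of -0.34 that did not pass (adjusted p = 0.607). Egr2 after ketamine overlapped with saline (0.00, 95% interval -0.33 to 0.32).

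Over the 24 PFCx comparisons 1 passed against all saline and 1 against the saline of the same set, with 13 at an unadjusted p under 0.05 each time. The background for all saline was 0.162% for haloperidol, 0.51% for risperidone, 0.351% for methamphetamine (1 of 4 Egr genes), 0.667% for mianserin, 0.0054% for venlafaxine and 0.0162% for ketamine. For the saline of the same set it was 0.0216%, 0.162%, 0.159% (1 of 4), 2.01%, 0.74% and 1.51% in the same order. The test for any drug effect called 0 of 4 (0.13% of all genes, and 0.0891% with the saline of the same set), with adjusted p-values in limma of 0.00114 for Egr1, 0.0234 for Egr2, 0.0718 for Egr4 and 0.0835 for Egr3. Its limit of 0.0001 is stricter than that for single drugs.

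The haloperidol difference was larger in NAc than in PFCx for Egr4 and Egr2. The difference of the differences was 1.12 for Egr4 (SE 0.18, limma adjusted p = 0.000303) and 0.97 for Egr2 (SE 0.20, adjusted p = 0.0312). With the saline of the same set they were 0.83 (adjusted p = 0.137) and 1.03 (adjusted p = 0.0893), so that both calls were lost. The Egr2 call was also lost in 8 of 64 fits that left out 1 library, with differences of 0.87 to 1.10 and an adjusted p of up to 0.123 without NAc haloperidol replicate 4. For Egr1 the value was 0.34 (adjusted p = 0.394).

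Of 24 such comparisons between tissues 2 passed and 7 had an unadjusted p under 0.05. The background was 0.0405% for haloperidol (2 of 4), 0% for risperidone and methamphetamine, 0.119% for mianserin, 0.0513% for venlafaxine and 0.313% for ketamine (0 of 4 each). After ketamine and venlafaxine the Egr3 values, -0.34 and -0.38, were the lowest of the family, but did not pass (adjusted p = 0.256 and 0.289).

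Drugs of the same sample set were compared with each other, at their own doses. In NAc, Egr1 was lower after venlafaxine than after ketamine, with no overlap between 6.49 to 8.95 and 11.3 to 11.8 FPKM (-0.57, SE 0.09, limma adjusted p = 0.00175). This was the only call among 24, against a background of 0.462% for this pair, and 15 of 24 had an unadjusted p under 0.05. The other NAc pairs had backgrounds of 0.0405% (haloperidol and risperidone), 0.0027% (haloperidol and methamphetamine), 0.0864% (risperidone and methamphetamine), 0.159% (mianserin and venlafaxine) and 0.937% (mianserin and ketamine). In PFCx 0 of 24 passed with limma and 7 had an unadjusted p under 0.05, at backgrounds of 0%, 0.0621%, 0.0864%, 0.213%, 0.186% and 0.0054% for haloperidol and risperidone, haloperidol and methamphetamine, risperidone and methamphetamine, mianserin and venlafaxine, mianserin and ketamine, and venlafaxine and ketamine.

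By mean level, NAc Egr1 ran from haloperidol over methamphetamine, risperidone, ketamine, mianserin and saline to venlafaxine, and each neighbour overlapped with the next. For NAc Egr2, Egr3 and Egr4 haloperidol stood above the next treatment without overlap (2.71 against 2.38 FPKM for Egr2, 16.2 against 15.7 for Egr3, 6.93 against 6.39 for Egr4). The order below haloperidol differed by member. Risperidone came next for Egr3 and Egr4, and methamphetamine for Egr1 and Egr2. Only venlafaxine stood below saline for Egr1, Egr2 and Egr4, while mianserin, venlafaxine and ketamine did so for Egr3. Every other neighbour overlapped with the next, except methamphetamine (from 4.64 FPKM) above ketamine (up to 3.37) for Egr4. In PFCx methamphetamine had the highest mean of Egr1, Egr2 and Egr4 and haloperidol that of Egr3, and every neighbour in the order overlapped with the next.

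Against all saline, the members did not move in proportion in NAc, as ratios taken within a library showed. These ratios, which need no scaling between libraries, were chosen after the values were seen. In NAc the log2 ratio of Egr3 to Egr4 was 2.12 ± 0.275 (SD, n = 8) after saline, and fell to 1.10 ± 0.121 (n = 4) after haloperidol, 1.38 ± 0.279 after risperidone and 1.08 ± 0.131 after methamphetamine. All 12 drug values lay below the lowest saline value of 1.81, and each exact permutation p was 0.00202 (adjusted over 72 ratios 0.0132). The ratio of Egr2 to Egr3 rose from -3.66 ± 0.492 to -2.33 ± 0.291 after haloperidol and -2.44 ± 0.394 after methamphetamine, with the same p-values. After risperidone it was -2.85 ± 0.396, with 2 of 4 values above all saline (exact permutation p = 0.0182, adjusted 0.0727). Saline I alone (n = 4) gave 1.90 ± 0.0754 for Egr3 to Egr4 and -3.95 ± 0.476 for Egr2 to Egr3. Against saline I, Egr3 to Egr4 fell less after haloperidol, risperidone and methamphetamine, by -0.81, -0.52 and -0.82 in place of -1.02, -0.73 and -1.04. Egr2 to Egr3 rose more, by 1.625, 1.106 and 1.516 in place of 1.335, 0.816 and 1.225.

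The ratio of Egr1 to Egr3 rose after methamphetamine and ketamine. In NAc it was -0.08 ± 0.207 after saline (n = 8), 0.46 ± 0.220 after methamphetamine and 0.46 ± 0.120 after ketamine (n = 4 each), with all 8 drug values above the highest saline value of 0.12 (exact permutation p = 0.00202, adjusted 0.0132). After haloperidol it was -0.06 ± 0.0971 (p = 0.867, exact permutation) and after risperidone -0.25 ± 0.0847 (p = 0.152, exact permutation), both within the range of saline, and drugs were not tested against each other on this ratio. In PFCx the ratio fell from 0.21 ± 0.169 to -0.11 ± 0.0639 after venlafaxine (exact permutation p = 0.00606, adjusted 0.0336). Of 36 ratios in each tissue 12 passed in NAc and 1 in PFCx against all saline. These ratios share the same 4 genes and are not independent, and the share among other pairs of genes was not counted. Against the saline of the same set 0 of 72 passed, and the smallest exact permutation p of 0.0286 adjusted to 0.114.

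**Figure D3:**
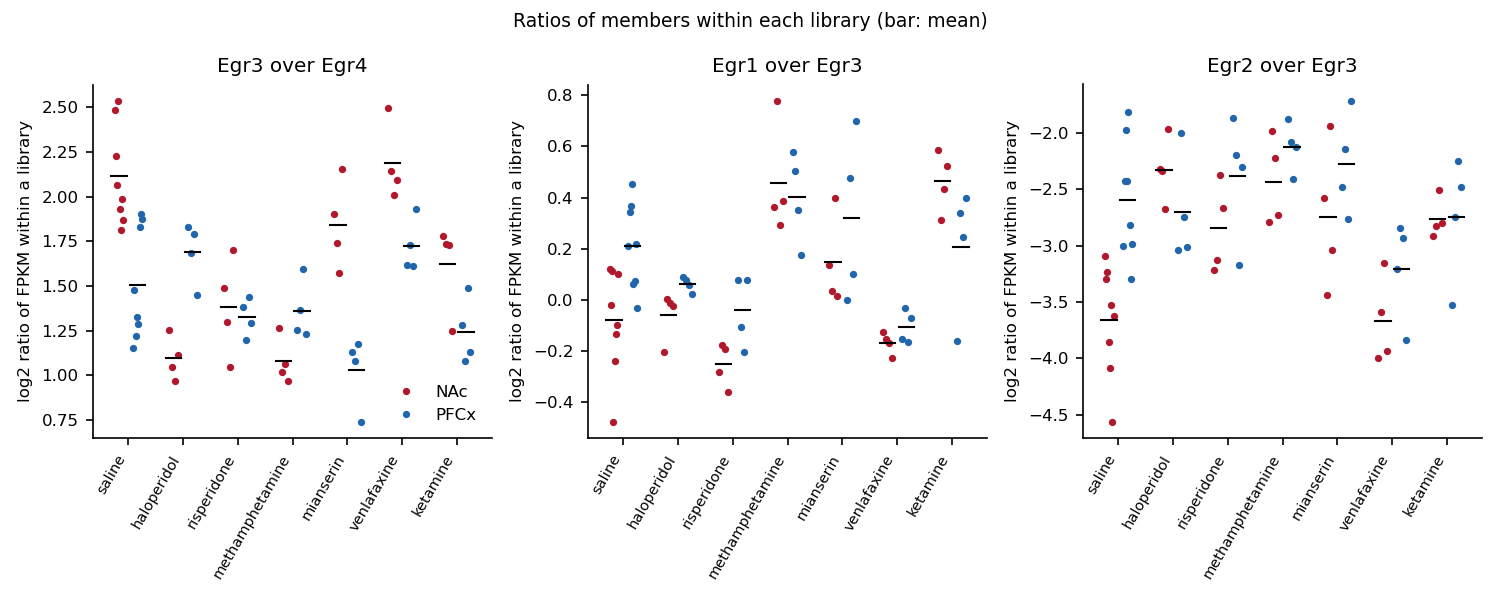
log2 ratios of FPKM within each library for Egr3 over Egr4, Egr1 over Egr3 and Egr2 over Egr3, by treatment, with NAc in red, PFCx in blue and a bar at the mean. After saline the NAc ratio of Egr3 to Egr4 averages 2.12, and after haloperidol 1.10.

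The transcripts behind each gene differed in number. Egr3 (ENSMUST00000035908, 1416 bases, chr14:70077445-70080157 on the plus strand in the mm10 coordinates of the files) and Egr4 (ENSMUST00000095759, 2148 bases, chr6:85511121-85513589 on the minus strand) had 1 transcript each. Egr1 had 2, of which ENSMUST00000165033 (Egr1-202, 3036 bases) held a median of 97.0% of the gene's FPKM in NAc and 95.9% in PFCx. It was called after haloperidol and methamphetamine in NAc (0.75 and 0.67, limma over 86331 transcripts, adjusted p = 9.66e-06 and 0.000119) and after methamphetamine in PFCx (0.64, adjusted p = 0.00255). The longer transcript ENSMUST00000064795 was at 0.106 to 0.900 FPKM in the NAc saline libraries and passed in no comparison.

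Egr2 had 7 transcripts, all protein coding, between 356 and 2965 bases long, and how its reads were divided among them varied widely. ENSMUST00000048289 (Egr2-201, 2965 bases, chr10:67537869-67542188 on the plus strand) held a median of 49.2% of the gene's FPKM in NAc and 51.3% in PFCx. Its median coverage was 0.708 in NAc and 1.51 in PFCx, against 22.1 and 24.6 for Egr3, so the split rests on few reads. In NAc Egr2-201 was at 0.165 to 0.580 FPKM after saline and at 1.71 to 3.29 FPKM after haloperidol, with no overlap (1.35, SE 0.16, adjusted p = 3.98e-05). After risperidone it ranged from 6.33e-08 to 1.54 FPKM, since in 1 library nearly all reads were given to other Egr2 transcripts, while the sum over the gene was 2.42 FPKM there. In PFCx Egr2-201 was at 1.72 to 2.69 FPKM after methamphetamine against 0.352 to 1.23 FPKM after saline, with no overlap (0.93, SE 0.14, adjusted p = 0.00177). That transcript passed in PFCx although the gene's sum did not.

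**Figure D4:**
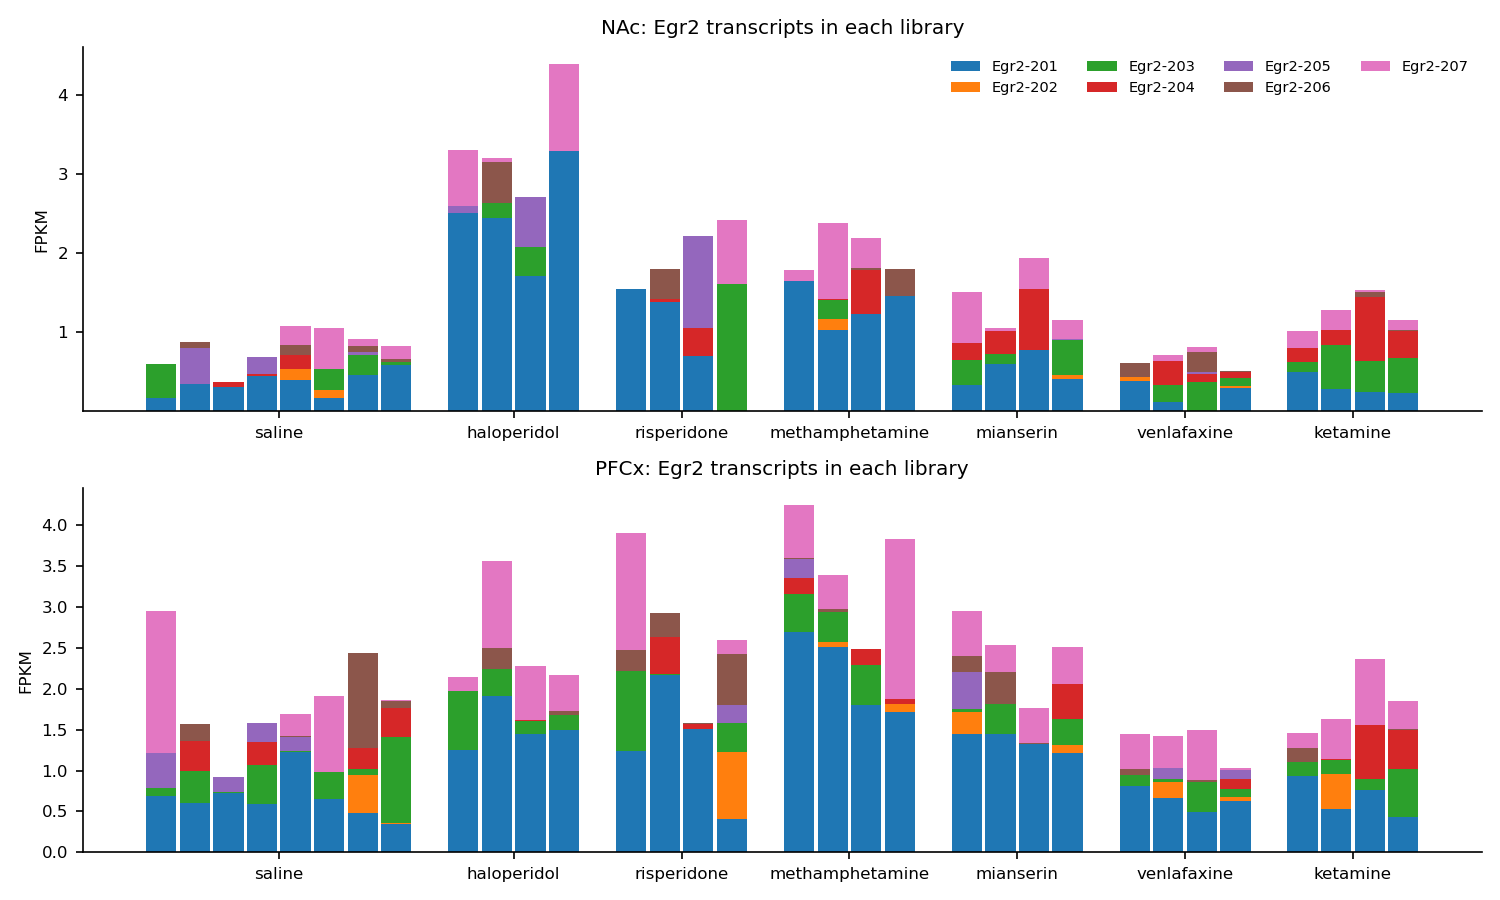
FPKM of the 7 Egr2 transcripts, stacked, in each library of NAc (top) and PFCx (bottom), grouped by treatment. The division among transcripts changes from library to library within a group, and Egr2-201 holds a median of 49.2% in NAc and 51.3% in PFCx.

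The genes most alike to each member across libraries were largely other immediate early genes in NAc. Likeness is Pearson's r over the 32 libraries of a tissue after the mean of the sample set was subtracted, among 15093 genes in NAc and 15698 in PFCx, and it is a description, since the libraries share treatments. In NAc Egr1 was most alike to Nr4a1 (r = 0.909), Fosl2 (0.892), Nr4a3 (0.859), Fos (0.843) and Arc (0.836). Egr4 was most alike to Fosb (0.926), Irs2 (0.862), Junb (0.842), Fosl2 (0.836) and Fos (0.812), and Egr2 to Fosb (0.841), Dusp5 (0.820), Fosl2 (0.815), Junb (0.788) and Frmd6 (0.786). Egr3 was most alike to Fosb (0.803), Gadd45g (0.746), Grasp (0.745) and Gm13889 (0.741). Among members, Egr2 and Egr4 were closest (0.849), and Egr1 and Egr3 farthest apart (0.542).

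In PFCx the lowest r between members was that of Egr2 and Egr3. Egr1 was most alike to Arc (0.878), Trib1 (0.815), Gfod1 (0.794), Ier5 (0.790) and Nr4a2 (0.774), and Egr4 to Irs2 (0.860), Arc (0.822), Fosb (0.822), Camkk1 (0.821) and Ankrd33b (0.819). Egr2 was most alike to Nr4a1 (0.678), Arc (0.672), Irf2bp2 (0.666), 1700016P03Rik (0.652) and Ezr (0.641). Egr3 was most alike to Pkd1 (0.788), Arrb1 (0.785), Rims4 (0.781), Shank2 (0.765) and Igsf9b (0.763), none of them in the list of immediate early transcription factors described next. Egr1 and Egr4 were the closest members (0.708), Egr2 and Egr3 had r = 0.172, and Egr1 and Egr3 had r = 0.638. The values of the tissues were not tested against each other.

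Many other immediate early transcription factors rose after haloperidol, risperidone and methamphetamine in both tissues. Of 13 listed (Fos, Fosb, Fosl2, Jun, Junb, Npas4, Nr4a1, Nr4a2, Nr4a3, Klf4, Klf10, Ier2 and Atf3), 8 rose after haloperidol, 8 after risperidone and 6 after methamphetamine in NAc, and 2 after mianserin and 2 after ketamine, while 2 fell after venlafaxine. Their median log2 differences were 0.71, 0.44, 0.42, 0.16, 0.12 and -0.18, where the median over all genes lay between -0.05 and 0.05. In PFCx 5, 5, 8 and 4 rose after haloperidol, risperidone, methamphetamine and mianserin and 0 after venlafaxine and ketamine (limma, with 1 and 6 at an unadjusted p under 0.05), with medians of 0.32, 0.28, 0.64, 0.38, 0.04 and 0.18 (order as above). Of all tested genes, 0.194% to 1.97% passed in NAc and 0.0054% to 0.667% in PFCx, depending on the drug. Against the saline of the same set these shares were 0.0081% to 0.967% and 0.0216% to 2.01%. With that control 6 factors rose in place of 8 after risperidone in NAc and after methamphetamine in PFCx. After haloperidol in PFCx 2 rose in place of 5, and the 2 that fell after venlafaxine in NAc became 0. Fos, a subunit of the AP-1 factor, was called in 9 of 12 comparisons. It was at 2.41 FPKM ± 0.576 (SD, n = 8) in NAc after saline and 10.6 ± 1.10 (n = 4) after haloperidol (1.78, adjusted p = 2.35e-10).

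Fos rose after ketamine and mianserin as well. After ketamine NAc Fos was at 6.46 FPKM ± 0.892 (n = 4; 1.14, adjusted p = 6.74e-06) and after mianserin at 5.91 ± 0.897 (1.03, adjusted p = 2.09e-05), and both calls held against saline II (adjusted p = 1.51e-05 and 0.000378). After mianserin PFCx Fos was at 12.1 ± 1.21 against 5.35 ± 1.09 after saline (1.06, adjusted p = 1.48e-05). Whether the Fos and Egr differences differ from each other was not tested.

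Feedback inhibitors of the ERK pathway, which switch off the kinases that induce Egr genes, passed in both tissues. Of 10 listed (Dusp1, Dusp2, Dusp4, Dusp5, Dusp6, Spry1, Spry2, Spry4, Spred1 and Spred2), 4, 1, 3, 0, 0 and 1 rose in NAc and 3, 3, 6, 4, 0 and 0 in PFCx, in the order haloperidol, risperidone, methamphetamine, mianserin, venlafaxine and ketamine. The phosphatase gene Dusp1, called in 7 of 12 comparisons, was at 3.80 FPKM ± 0.720 (n = 8) in PFCx after saline and 9.18 ± 0.588 (n = 4) after mianserin (1.10, adjusted p = 1.56e-06). Over the 12 comparisons with all saline 0.0054% to 1.97% of all tested genes passed. With the saline of the same set 1 of 10 passed after haloperidol in PFCx in place of 3, and 2 in place of 3 after risperidone in PFCx. In NAc 1 passed in place of 3 after methamphetamine and 0 in place of 1 after risperidone.

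Genes upstream of Egr gave 2 calls in 120 tests, both lower. Between 0.0054% and 1.97% of all tested genes passed by comparison, so few calls are not particular to this list. Of 10 listed (Mapk3, Map2k1, Map2k2, Srf, Elk1, Elk3, Elk4, Mkl1, Mkl2 and Creb1), 0 rose in any of the 12 comparisons with limma. At an unadjusted p under 0.05 in limma, 20 of 120 tests were higher and 9 lower. Map2k2, an ERK kinase, fell by 0.49 after mianserin and by 0.45 after ketamine in NAc against all saline (adjusted p = 0.0344 and 0.0451), and not against saline II (-0.22 and -0.18, adjusted p = 0.542 and 0.538).

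Among reported Egr targets Arc and Nab2 passed most often. The share of all tested genes that passed ran from 0.0054% to 1.97% over the 12 comparisons with all saline. Arc, which acts in receptor endocytosis at synapses, was called in 8 of 12 comparisons. In NAc it was at 6.45 FPKM ± 0.974 (n = 8) after saline and 25.6 ± 2.201 (n = 4) after haloperidol (1.84, adjusted p = 1.09e-11), and at 3.98 ± 0.690 after venlafaxine (-0.58, adjusted p = 0.0188). Against saline II the venlafaxine call was lost (-0.44, adjusted p = 0.536). In PFCx Arc was at 7.19 ± 1.47 after saline and 28.2 ± 6.59 after methamphetamine (1.83, adjusted p = 4.56e-08).

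The co-repressor Nab2, which binds Egr proteins and limits their activity, rose in 4 of 12 comparisons and Nab1 in 0 (limma, also 0 at an unadjusted p under 0.05). In NAc Nab2 was at 5.92 FPKM ± 0.590 (n = 8) after saline and 7.82 ± 0.564 (n = 4) after haloperidol (0.35, adjusted p = 0.0115). In PFCx it was at 4.99 ± 0.494 after saline, 6.98 ± 0.428 after methamphetamine (0.42, adjusted p = 0.00248), 6.61 ± 0.418 after haloperidol (0.35, adjusted p = 0.0342) and 6.43 ± 0.577 after mianserin (0.31, adjusted p = 0.0276). Against the saline of the same set only the methamphetamine call held (0.45, adjusted p = 0.0093). Of the other 10 listed targets (Cdk5r1, Syn1, Syn2, Gabra4, Ngfr, Dlg4, Psmb9, Htr2a, Tgfb1 and Pmp22), Dlg4 after ketamine in NAc was the only call against all saline (0.28, adjusted p = 0.0445), and it was lost against saline II (0.24, adjusted p = 0.235). Against saline II, Syn1 rose after ketamine in NAc (0.40, adjusted p = 0.0161), and Tgfb1 was lower in PFCx after mianserin, venlafaxine and ketamine (-0.97, -1.09 and -1.04, adjusted p = 0.000894, 0.00173 and 0.0015). PFCx Tgfb1 spread widely over the 8 saline libraries, from 1.25 to 6.25 FPKM, its means after all 6 drugs lay between 1.32 and 2.09 FPKM, and it passed for no drug against all saline.

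**Figure D5:**
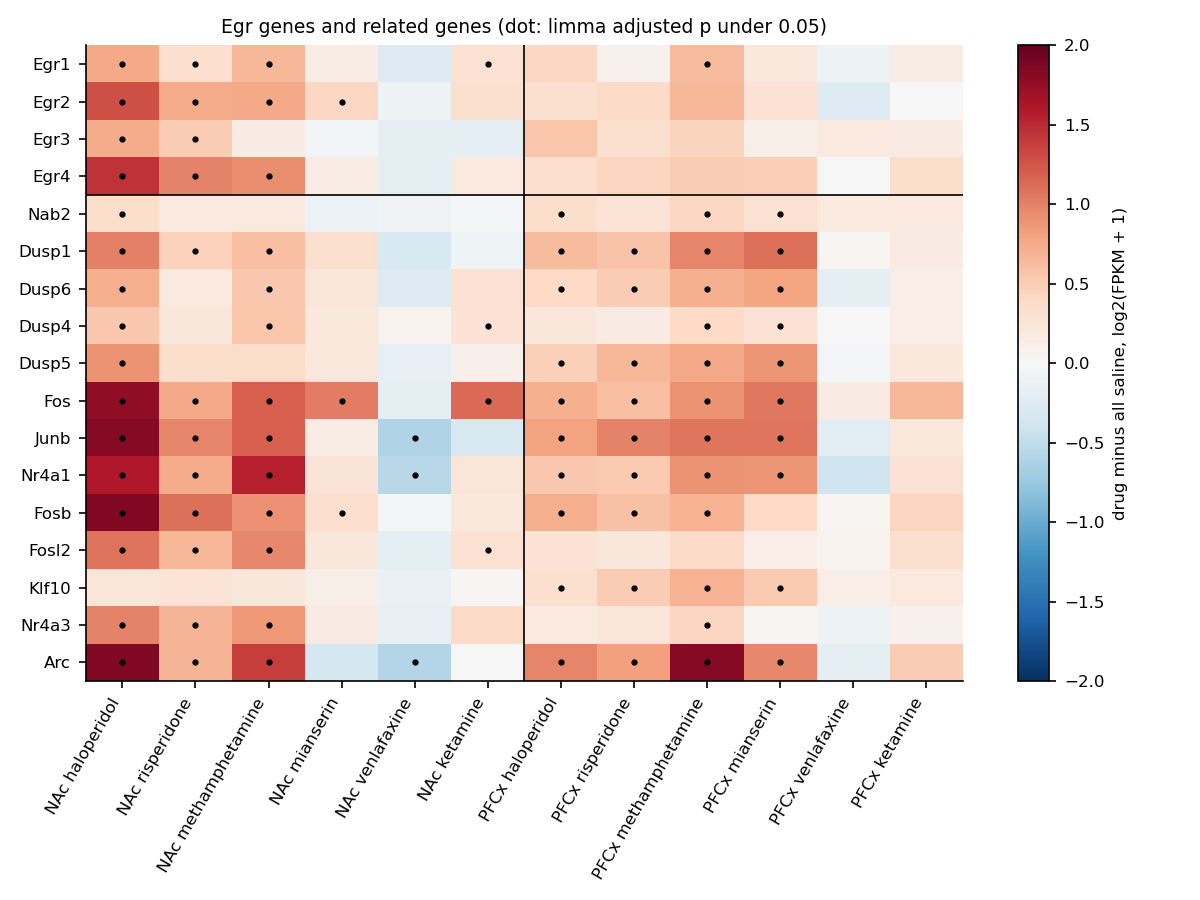
Log2 differences between drug and all saline (colour, from -2 to 2) for the 4 Egr genes and the 13 related genes called in at least 4 of 12 comparisons, with a dot for a limma adjusted p under 0.05. The values run from -0.60 to 1.85, and the haloperidol column of NAc holds the largest ones.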

How the data were processed

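Total RNA depleted of ribosomal RNA was sequenced on an Ion Proton in 64 libraries. The authors aligned the reads to mm10 (TopHat2 2.0.1 per the submitters' processing notes) and estimated FPKM of annotated Ensembl transcripts with Cufflinks 2.2.1, 1 table per library. The deposited tables also give coverage, the estimated read depth per base as the authors' Cufflinks run wrote it, which was used only for depth. They hold no read counts, so no count model was used.

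FPKM was summed per gene and tested as log2(FPKM + 1) with limma 3.58.1 in R 4.3.3, on the 37034 genes with a mean of at least 0.1 in a tissue, with Benjamini-Hochberg adjustment over all genes at 0.05 (0.0001 for the test of any drug). The 86331 transcripts were tested likewise. In each tissue 1 model held all treatments. The contrast of tissues used both tissues in 1 model. The code was tested on simulated data. Single genes and ratios within a library were compared by two-sided exact permutation (Python 3.11.15, scipy 1.17.1, numpy 2.4.6, pandas 2.3.3). Intervals are 95% intervals of the limma fit. FPKM depends on how Cufflinks divided reads among transcripts, and on library composition.

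Members and gene lists were chosen with earlier results of these data known. Named genes were the 4 members, the 5 genes most alike to each in a tissue, and, of each pathway list, those called most often, and a few others chosen after their values were seen. Some genes that the lists or this rule would name are not reported here, and the list counts leave them out. The assignment of drugs to saline I or II was read from the tables, and the ratios were chosen after the values were seen. The choices varied were the pseudocount (0.1), the filter (none, or a mean of at least 1), libraries rescaled to an equal 75th percentile, a mean-variance trend, a replicate block, the saline of the same set, the most abundant transcript, and leaving out each library. Rescaling on the same genes in every library was added after seeing the data.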

Additional observations from a re-analysis of the deposited data

Results flagged for a closer look

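In 56 groups of 4 to 8 libraries, Dixon's criterion marked 6 in which 1 library stood apart, where chance marks about 1 in 20 groups. In NAc these were Egr1 after methamphetamine, with the lowest library, replicate 3, at 12.6 FPKM, and Egr1 after mianserin, with the highest library, replicate 2, at 11.7 FPKM. In PFCx they were Egr2 after haloperidol, with replicate 2 highest at 3.56 FPKM, Egr4 after mianserin, with replicate 1 highest at 7.54 FPKM, Egr2 after venlafaxine, with replicate 4 lowest at 1.04 FPKM, and Egr3 after ketamine, with replicate 1 highest at 16.8 FPKM.

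The haloperidol difference differed between NAc and PFCx by limma's test of the difference for Egr2, by 0.97 (adjusted p = 0.0312), and for Egr4, by 1.12 (adjusted p = 0.000303). With the saline of the same set neither passed, at 1.03 (adjusted p = 0.0893) and 0.83 (adjusted p = 0.137).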

How the results depend on the processing

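Of 24 NAc comparisons with saline 13 passed, and 10 to 13 did so when 1 library was left out. Rescaling to an equal 75th percentile of genes above 0 gave 8, not all of them among the 13: all calls after risperidone and methamphetamine and those of Egr1 and Egr3 after haloperidol (0.24 and 0.23, adjusted p = 0.304 and 0.350) were lost, and Egr1 and Egr4 after mianserin and Egr2 and Egr4 after ketamine were gained (0.63, 0.53, 0.53 and 0.54). The Egr1 difference after risperidone became -0.13 (adjusted p = 0.570), and that of Egr4 between saline I and II in NAc became -0.48 (adjusted p = 0.000151). It also called 1 of 4 members for any drug in NAc, 0 of 24 between NAc drugs, 0 of 24 between tissues, and 4 of 4 in NAc and 1 of 4 in PFCx between saline I and II. NAc set I lists fewer genes above 0, and the median difference of all genes over the drug comparisons lay between -0.176 and 0.206 under this rescaling, against -0.0479 and 0.0549 without it. The 75th percentile of genes above 0 was 4.38 to 4.94 FPKM in NAc set I and 2.03 to 2.35 in NAc set II. On the same genes in every library it was 9.89 to 10.8 and 8.93 to 9.96. Rescaling on the same genes gave a median difference between -0.0686 and 0.0763, and 1 of 4 members passed between saline I and II in each tissue. It kept 12 of 24 NAc calls, losing Egr1 after risperidone (0.30, adjusted p = 0.109), 4 of 4 for any drug in NAc and 2 of 24 between tissues. With a pseudocount of 0.1 the median difference of all genes lay between -0.141 and 0.158, and 1 of 4 passed between the saline sets in NAc.

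In PFCx 1 of 24 passed, 1 to 4 with 1 library left out (4 without saline II replicate 1, 3 without saline I replicate 2), 4 with a mean of at least 1 FPKM and 2 with the most abundant transcript. Between drugs 1 of 24 passed in NAc (1 to 2 with 1 library left out, 2 with a mean of at least 1) and 0 of 24 in PFCx (0 to 1, and 1). Between tissues 2 passed, 1 to 2 with 1 library left out and 0 with the saline of the same set. The cause of these changes was not tested.

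With the replicate block 12 of 24 passed in NAc, where Egr2 after mianserin was lost (adjusted p = 0.0605). In PFCx 5 passed, with Egr1 and Egr3 after haloperidol (adjusted p = 0.0225 and 0.0345), Egr4 after methamphetamine (0.0493) and Egr4 after mianserin (0.0456) beside Egr1 after methamphetamine. Between drugs 2 passed in NAc and 1 in PFCx. Same-numbered libraries had a mean correlation of 0.0981 in NAc and 0.105 in PFCx, against -0.0327 and -0.0313 for different numbers. Group means were subtracted first, so the values for different numbers follow largely from those for the same number. In each tissue 22 of 32 libraries correlated best with their own number, a hint of pairing from the data. The labels do not say what a number marks, so the block was kept as an alternative. Of 112 same-numbered pairs 61 in NAc and 47 in PFCx had r over 0.1. Pairs of different numbers were not counted this way, so these counts cannot decide on pairing. FPKM tables give no counts, so no counting interval could be set, and Egr2, at a median coverage of 0.708 for Egr2-201 in NAc, rests on the fewest reads.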
